A study of Mus musculus with 9 samples.

Results

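The genes of creatine phosphate metabolism were followed in mouse skeletal muscle and in muscle cells grown in culture. The 7 genes were chosen by symbol and matched to the Ensembl identifiers of the count files: the creatine kinases Ckm, Ckb, Ckmt1 and Ckmt2, the synthesis enzymes Gatm and Gamt, and the creatine transporter Slc6a8. All 7 were listed in each of the 9 libraries, among 38293 genes in the files of muscle and 46078 genes in those of cultured cells. The muscle group, GAS, was M. gastrocnemius of C57BL/6 mice by the labels (n = 3), and the methods give female C57Bl6/J animals aged 8 to 12 weeks. The cultured groups were primary C57BL/6 myoblasts in growth medium with basic-FGF (MB, n = 2), myotubes obtained after 3 days in differentiation medium (MT, n = 2) and myoblasts given 10 mM sodium-L-lactate (MB_lac, n = 2). MB and MT were control cultures, and control cells received PBS, the solvent of the lactate. The animals from which the myoblasts came are not stated, and neither is whether cultures with the same replicate number share an origin. GAS RNA came from whole muscle, so the fibres are measured together with vessels, nerve and connective tissue. Cultured cells were profiled from 5 ng of RNA with Smart-seq2, whereas the GAS libraries were made elsewhere by another protocol, so the levels of GAS and of cultured cells are set side by side with no test. In bulk RNA, a smaller share of cells of a type and less RNA per cell cannot be told apart.

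Creatine kinases move a phosphate group between ATP and creatine, and phosphocreatine buffers ATP during contraction. The M (muscle) subunit, encoded by Ckm, and the B (brain) subunit, encoded by Ckb, form cytosolic dimers, and a shift from B to M subunits is a classical feature of muscle differentiation. The mitochondrial enzymes, the sarcomeric form of Ckmt2 and the ubiquitous form of Ckmt1, sit between the mitochondrial membranes where newly exported ATP is used to charge creatine. Creatine itself is made in a pair of steps, by the arginine:glycine amidinotransferase Gatm and then by the guanidinoacetate methyltransferase Gamt, mainly in kidney and liver, and muscle takes it up through Slc6a8.

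The members lie on separate chromosomes or far apart. In GRCm38 (GENCODE M21), Ckm spans chr7:19404776-19422841 on the plus strand, Ckb chr12:111669361-111672338 on the minus strand and Ckmt2 chr13:91853387-91876885 on the minus strand. Ckmt1 (chr2:121357714-121363737, plus strand) and Gatm (chr2:122594467-122611303, minus strand) share a chromosome. Gamt spans chr10:80258151-80261012 on the minus strand and Slc6a8 chrX:73673150-73682502 on the plus strand. RefSeq start windows (GRCm38.p6) matched 6 of the 7 members, and Slc6a8 was the member without one. Shown are the 250 bases before the start site of the 4 members whose transcripts were higher in MT than in MB, 5′ to 3′ on the gene's own strand. They are chr7:19410844-19411093 for Ckm, chr12:111672339-111672588 for Ckb, chr13:91876886-91877135 for Ckmt2 and chr2:122611278-122611527 for Gatm. Capitals mark each E-box (CANNTG, the letters that myogenic bHLH factors such as MyoD bind) and each MEF2 box.
Ckm: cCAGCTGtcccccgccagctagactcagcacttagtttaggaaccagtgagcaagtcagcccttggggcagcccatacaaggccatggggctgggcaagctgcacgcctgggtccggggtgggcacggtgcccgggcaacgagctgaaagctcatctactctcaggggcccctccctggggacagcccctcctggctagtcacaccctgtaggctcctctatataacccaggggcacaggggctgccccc
Ckb: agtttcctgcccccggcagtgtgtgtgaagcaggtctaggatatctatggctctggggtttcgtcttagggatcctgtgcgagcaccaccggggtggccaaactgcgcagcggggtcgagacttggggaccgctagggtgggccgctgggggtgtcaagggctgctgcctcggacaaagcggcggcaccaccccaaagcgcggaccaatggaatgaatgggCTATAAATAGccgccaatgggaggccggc
Ckmt2: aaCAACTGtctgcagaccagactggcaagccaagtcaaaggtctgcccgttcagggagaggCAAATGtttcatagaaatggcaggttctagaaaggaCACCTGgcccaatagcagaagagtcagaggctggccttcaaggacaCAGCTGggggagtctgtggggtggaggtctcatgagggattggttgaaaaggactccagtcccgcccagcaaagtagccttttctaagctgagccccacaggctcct
Gatm: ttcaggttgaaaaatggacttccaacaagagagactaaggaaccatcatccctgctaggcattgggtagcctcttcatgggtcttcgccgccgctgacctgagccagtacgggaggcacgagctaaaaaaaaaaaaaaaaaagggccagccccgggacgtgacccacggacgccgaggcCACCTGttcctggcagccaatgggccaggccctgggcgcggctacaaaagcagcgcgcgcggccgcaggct

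The windows differed in the letters they hold. Position -1 is the base just before the start site. Ckmt2 had 4 E-boxes, with first bases at -248 (CAACTG), at -189 (CAAATG), at -153 (CACCTG) and at -107 (CAGCTG). Ckm had 1 (CAGCTG at -249 to -244), Gatm had 1 (CACCTG at -71 to -66) and Ckb had 0. CANNTG, which reads the same on both strands, was present in 66.2% of the 32851 RefSeq windows of this length, CAGCTG in 13.0% and CAGGTG or its complement CACCTG in 17.2%. The Ckb window was the one with a MEF2 box, CTATAAATAG at -29 to -20, which contains a TATAAA at -28 to -23. A MEF2 box occurred in 0.508% of all windows and TATAAA, searched on the gene's strand, in 7.59%. Ckb also had the MCAT letters GGAATG (complement CATTCC) at -41 to -36, found in either form in 12.6% of windows. No CArG box, present in 1.47% of windows, was found in the windows of the members. These are matches of letters, not measured binding.

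Sequencing depth was 19307793 to 19941574 counts per GAS library and 5198247 to 10839516 per cultured library, so that 3 counts corresponded to at most 0.155 CPM (counts relative to the library total) in GAS and 0.277 to 0.577 CPM in culture before scaling. As sums, the muscle cell markers went with the labels: the myoblast markers Pax7, Myf5 and Myod1 summed to 757 to 1236 CPM in MB, 856 to 1455 in MB_lac, 161 to 387 in MT and 12.7 to 16.0 in GAS. The 5 markers of differentiated muscle (Myog, Mymk, Acta1, Myh3, Tnnt3) summed to 97.3 to 210 CPM in MB, 135 to 198 in MB_lac, 10707 to 13790 in MT and 44430 to 49534 in GAS. The GAS sum was mostly Acta1 (22783 to 25570 CPM) and Tnnt3 (21635 to 23955). Myog (5.14 to 8.40 CPM), Mymk (0.0 to 0.304) and Myh3 (1.57 to 3.24) were lower in GAS than in MB. In MB they were at 37.1 to 85.0, 14.0 to 41.8 and 8.68 to 12.3 CPM, and in MT at 739 to 1025, 720 to 1655 and 1446 to 3963. The adult fast fibre markers (Myh4, Myh2, Pvalb, Actn3) summed to 11.6 to 23.7 CPM in MB, 17.1 to 56.9 in MB_lac, 892 to 990 in MT and 81224 to 92088 in GAS, with Myh4, Myh2 and Pvalb at 0 in all MB and MB_lac libraries. The MT libraries also held fibroblast markers (Pdgfra, Col1a1, Dcn, Lum), all 4 above 3 counts. They summed to 13536 CPM in MT replicate 1 and 1875 CPM in MT replicate 2, against 330.4 to 427 in GAS. In MB they summed to at most 2.57 CPM and in MB_lac to at most 2.13, with Lum at 0 in both groups. Col1a1 alone was at 13116 and 1762 CPM in MT, against 62.7 to 68.0 in GAS. Pdgfra (5.66 and 2.54 CPM) and Lum (6.03 and 0.763) were lower in MT than in GAS (19.7 to 28.4 and 17.0 to 21.4). Dcn was at 408 and 110 CPM in MT and 230 to 314 in GAS. Summed levels of endothelial, leukocyte, adipocyte, Schwann cell and smooth muscle markers were 9.53, 14.7, 0.596, 6.63 and 6.18 CPM in MT replicate 1. In MT replicate 2 they were 0.0, 1.91, 0.0, 1.02 and 1.27 CPM. They reached 129, 15.3, 29.0, 36.5 and 22.0 CPM in GAS, and at most 1.05, 0.490, 0.0, 2.89 and 0.123 CPM in MB and MB_lac. MT replicate 1 had counts in 28599 genes and replicate 2 in 17965, and a single ribosomal RNA gene accounted for 9.20% of MB replicate 1 and 13.8% of MB_lac replicate 1, but at most 0.575% of any other library.

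**Figure D1:**
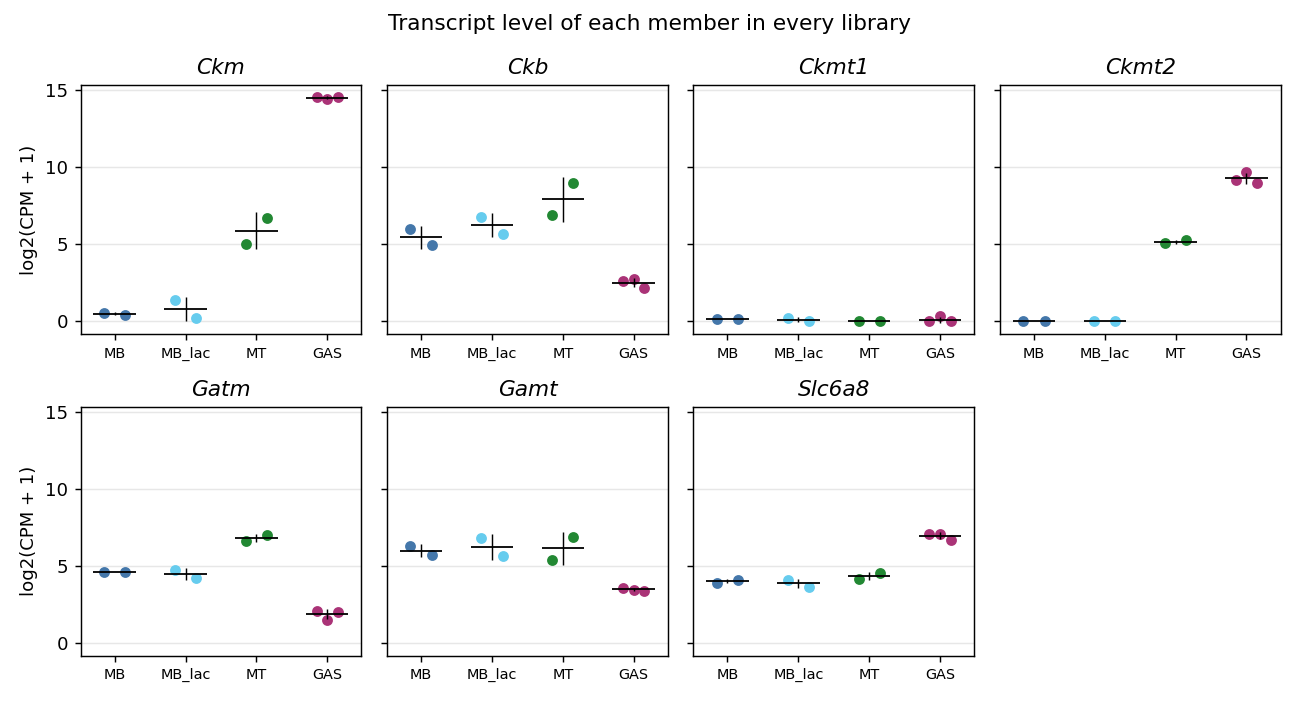
Level of each gene in every library as log2(CPM + 1), with points for libraries, horizontal lines for group means and vertical lines for 1 SD (n = 2 for MB, MB_lac and MT, n = 3 for GAS). Ckm and Ckmt2 were near 0 in MB and highest in GAS, whereas Ckb, Gatm and Gamt were lower in GAS than in the cultured groups.

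Ckm was almost silent in MB and one of the most abundant transcripts of muscle. It had 4 and 3 counts in the MB libraries, 424 and 824 in MT, and 482304, 438978 and 475539 in GAS. In CPM these are 0.490 and 0.362 in MB, 31.6 and 105 in MT, and 24487, 22224 and 24682 in GAS. Both MT libraries thus lay far above both MB libraries, and the GAS libraries far above MT. In GAS, Ckm alone took 2.27% to 2.44% of all counts and ranked 14 by RPKM (CPM divided by the exon length in kilobases), at 8169 ± 469 RPKM (SD, n = 3). MT was higher than MB by a log2 fold change (log2FC) of 7.24 (SE 0.81, adjusted p = 2.7e-04, edgeR's quasi-likelihood test over 12921 genes), which is 151-fold. The log2FC was 6.07 without MT replicate 2 and 7.83 without MT replicate 1, and the call held without either. Because MB holds only 7 counts in all, the pooled ratio of 138 has a wide exact 95% interval of 66.7 to 343, which covers counting error alone.

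Reads at the Ckm locus can also be assigned to its antisense neighbour A930016O22Rik, with which Ckm shares 315 of its 2904 stretches of 50 bases. That gene had 23824, 21937 and 23572 counts in GAS, 4.71%, 4.76% and 4.72% of the counts of both genes, but at most 2 in any cultured library. The handling of strand in counting is not given in the sources used here, so reads from the overlap cannot be assigned to either strand.

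Ckb showed a different order, with its highest level in MT and its lowest in muscle. It was measured at 62.7 and 29.9 CPM in MB, at 117 and 496 CPM in MT, and at 5.18, 5.62 and 3.53 CPM in GAS. Both MT libraries were above both MB libraries, but the MT libraries differed from each other more than the lower one differed from MB. The log2FC of MT against MB was 2.65 (SE 0.68, 95% interval 1.15 to 4.15, edgeR adjusted p = 0.023), or 6.27-fold. This call rests on MT replicate 2: without it the log2FC was 1.21 with an edgeR adjusted p of 0.197. Ckb shares 312 of 3125 stretches of 50 bases with Ckb-ps1, Ckb-ps2 and Gm12892. Among these copies, Ckb-ps1 and Ckb-ps2 had 0 counts in the cultured libraries, and Gm12892 had 7 and 23 in MT and 1 in each MB library, against 1570 and 3898 for Ckb in MT.

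The cytosolic pair was therefore compared as a composition, per exon length and within each library, which needs no scaling between libraries. Ckb made up 99.2% (exact 95% interval 98.0 to 99.8) and 98.8% (96.6 to 99.8) of Ckb plus Ckm in the MB libraries. It made up 78.8% (77.0 to 80.6) and 82.6% (81.5 to 83.7) in MT. In GAS the share was 0.0213%, 0.0254% and 0.0144%, so that Ckm exceeded Ckb per length by 3930 to 6950 times. The ranges of MB, MT and GAS did not overlap. After 3 days of differentiation Ckb remained the larger part of the pair, and both genes were called higher than in MB. The MT libraries differed far more in their Ckb level than in this share. With 2 libraries a group an exact permutation test cannot give a p below 0.333, and none was run.

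Of the mitochondrial isoforms, sarcomeric Ckmt2 was the one detected. It had 0 counts in both MB libraries and in both MB_lac libraries, 435 and 293 in MT, and 11418, 16200 and 9938 in GAS. Its level was 32.4 and 37.3 CPM in MT, and 580, 820 and 516 CPM in GAS. MT was at least 95.5-fold higher than MB, taking 3 counts per library as the limit for MB, and the call in edgeR had an adjusted p of 2.0e-04. The MT libraries were closer to each other for Ckmt2, with an SD of 9.90% of the mean, than for Ckm at 75.9% or Ckb at 87.5%. In GAS, Ckmt2 reached 429.7 ± 108 RPKM (SD, n = 3) and ranked 76 among all genes. Its antisense neighbour 1700119I11Rik had 30 to 47 counts in GAS and 0 in culture.

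Ckmt1 was hardly detected. It had 5 counts in GAS replicate 2 (0.253 CPM), and every other library had 0 or 1. It did not pass edgeR's filter on low counts in either comparison, and in culture no library exceeded the limit of 3 counts. Ckmt1 shared no stretch of 50 bases with another annotated gene.

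**Figure D2:**
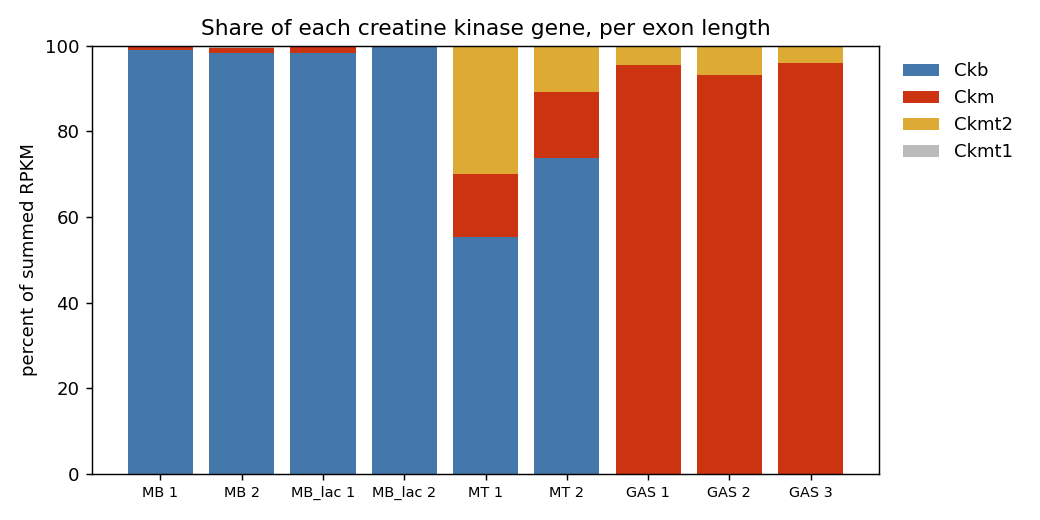
Percent of the summed RPKM of the 4 creatine kinase genes taken by each gene in every library (bars start at 0 and stack to 100). Ckb filled 98.4% to 99.7% of the bars of MB and MB_lac, MT mixed Ckb, Ckm and Ckmt2, and Ckm filled 93.2% to 96.1% of the GAS bars.

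Over the 4 kinase genes together, the summed level was 21.9 and 10.5 RPKM in MB, 73.0 and 232 in MT, and 8183 to 8821 in GAS. Within that sum, Ckmt2 held 29.9% and 10.8% in the MT libraries and 3.93% to 6.74% in GAS. Ckm held 14.8% and 15.5% in MT. The larger Ckmt2 share of MT replicate 1 came with its lower Ckb level.

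Gatm, the first and rate-limiting enzyme of creatine synthesis, was higher in MT than in MB. Its level was 23.9 and 23.7 CPM in MB, 98.6 and 126 CPM in MT, and 3.25, 1.82 and 3.06 CPM in GAS. The MT libraries lay well above the closely matched MB libraries, and the GAS libraries below both. The log2FC of MT against MB was 2.23 (SE 0.44, 95% interval 1.27 to 3.19, edgeR adjusted p = 0.0067), or 4.69-fold. Leaving out any single library gave 1.95 to 2.34.

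Gamt, which methylates guanidinoacetate to creatine, did not separate MT from MB. It was at 77.6 and 51.1 CPM in MB, 41.5 and 120 CPM in MT, and 11.2, 10.1 and 9.45 CPM in GAS. The MT libraries lay on both sides of the MB libraries. Its log2FC was 0.27 (SE 0.53, 95% interval -0.91 to 1.44, edgeR adjusted p = 0.767), and the sign turned without MT replicate 2 (-0.75) or without MB replicate 2 (-0.12).

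Slc6a8, which imports creatine with sodium and chloride, had the reverse distribution of the synthesis enzymes between muscle and culture. It was at 14.2 and 16.5 CPM in MB, 16.8 and 22.4 CPM in MT, and 135, 136 and 104 CPM in GAS. Both MT libraries were slightly above both MB libraries, with a log2FC of 0.35 (SE 0.50, 95% interval -0.77 to 1.46, edgeR adjusted p = 0.676). The intervals of Gamt and Slc6a8 leave room for more than a doubling as well as for a fall.

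The order of levels per exon length also differed between the groups. In MB it ran from Gamt (44.6 ± 13.0 RPKM) over Ckb (16.0 ± 8.03), Gatm (7.94 ± 0.036) and Slc6a8 (2.95 ± 0.312) to Ckm (0.146 ± 0.031), Ckmt1 and Ckmt2, and no neighbours in that order overlapped, although the last 3 genes had at most 4 counts. In MT, Ckb came first (106 ± 92.5 RPKM), followed by Gamt (55.8 ± 38.2), Gatm (37.5 ± 6.56), Ckmt2 (23.4 ± 2.32), Ckm (23.4 ± 17.8) and Slc6a8 (3.76 ± 0.754). There the ranges of Ckb and Gamt, of Gamt and Gatm, and of Ckmt2 and Ckm overlapped. In GAS the order was Ckm, Ckmt2, Slc6a8 (24.0 ± 3.50 RPKM), Gamt (7.11 ± 0.620), Ckb (1.65 ± 0.381), Gatm (0.903 ± 0.258) and Ckmt1, with no overlap between neighbours (SD, n = 3; n = 2 for MB and MT).

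**Figure D3:**
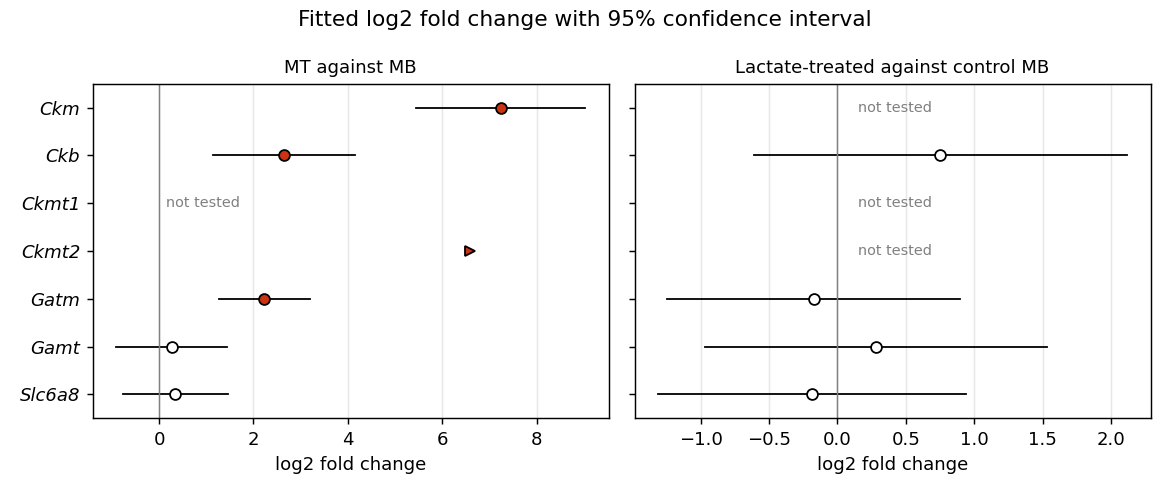
Fitted log2FC with its 95% interval for MT against MB (left) and lactate-treated against control MB (right), on different scales. Red points passed the test, open points did not, and the arrow marks the lower bound for Ckmt2. Ckm, Ckb, Ckmt2 and Gatm lay to the right of 0 in MT, while every interval in the lactate panel spanned 0. These fits had no replicate block.

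Of the 6 members tested in MT against MB, 4 were higher (Ckm, Ckb, Ckmt2 and Gatm) and 0 lower, at an adjusted p under 0.05 and an absolute log2FC over 0.5. Over all 12921 genes tested, 11.0% were called higher and 6.86% lower. In 5 of the 6 members both MT libraries lay above both MB libraries, as in 32.9% of all genes tested. The median log2FC was 2.44 over the 6 members and 0.07 over all genes. The 4 called members were all lower in MT replicate 1, the library with the higher fibroblast marker sum, than in replicate 2 after TMM scaling. For Ckmt2 this turned on total counts, with 0.00401% of the counts of replicate 1 and 0.00373% of those of replicate 2. That sum is mostly Col1a1, and whether RNA of fibroblasts has a part in these results was not tested. Without MT replicate 1 the log2FC was 7.83 for Ckm, 3.32 for Ckb and 2.34 for Gatm. Ckmt2 had no count in MB, so none is given for it. This does not test fibroblast RNA, because MT replicate 2 itself held 1875 CPM of these markers, against at most 2.57 in MB.

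**Figure D4:**
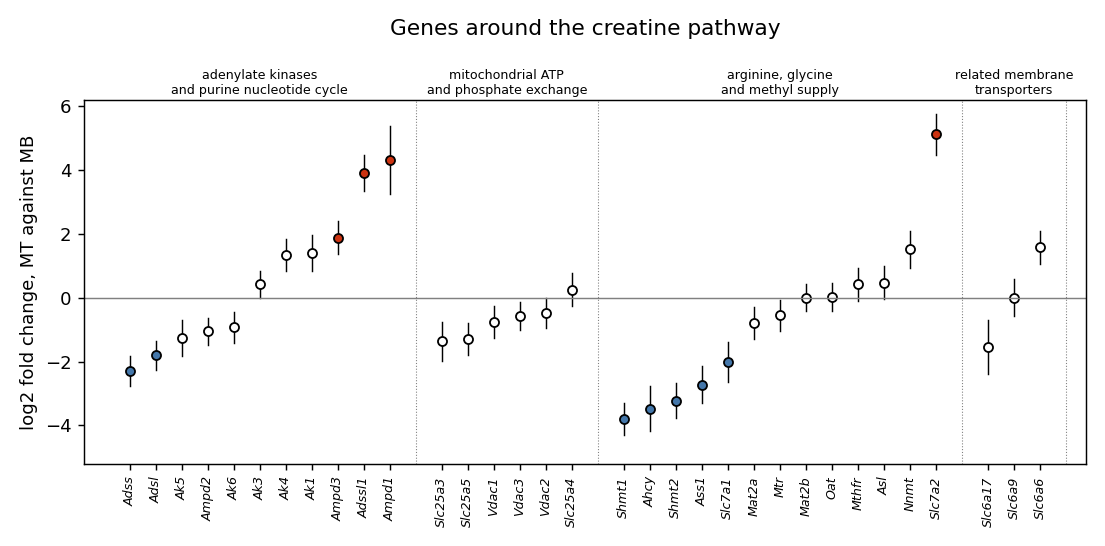
Log2FC of MT against MB (points) with its standard error (bars) for genes of 4 lists around the creatine pathway. Ak8 is left out because MB had no count, and 1 further tested gene is not drawn. Red points were called higher and blue points lower, and Slc7a2, Ampd1 and Adssl1 stood highest while Shmt1, Ahcy and Shmt2 stood lowest.

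Genes around the pathway were read from 4 lists. Of the adenylate kinases and the purine nucleotide cycle, which share the task of balancing adenine nucleotides with creatine kinase, 13 of 15 were tested, 4 were higher in MT and 3 lower, against the background of 11.0% and 6.86%. The muscle forms of the cycle were among the higher ones, but not alone. The AMP deaminase Ampd3, named after its values were seen, was also higher (log2FC 1.88, SE 0.52, edgeR adjusted p = 0.030). Adssl1, the muscle adenylosuccinate synthase, went from 16.5 ± 8.27 to 253 ± 43.3 CPM (SD, n = 2; log2FC 3.92, SE 0.56, edgeR adjusted p = 0.0013). Ampd1, the muscle AMP deaminase, had 2 and 1 counts in MB against 44 and 37 in MT, a pooled ratio of 20.9 with an exact interval of 6.89 to 103. Ak8, an adenylate kinase, had 0 counts in MB and 15 and 34 in MT, at least 7.46-fold higher. The lower genes included Adss, the non-muscle adenylosuccinate synthase (log2FC -2.30, SE 0.47), and the lyase Adsl (-1.80, SE 0.46). Ak1, the cytosolic adenylate kinase of muscle, and Ampd1 had the highest levels of this list in GAS, with 609 ± 21.9 and 450.3 ± 55.7 RPKM (SD, n = 3). In MT against MB, Ak1 was not called (log2FC 1.40, SE 0.56, edgeR adjusted p = 0.110).

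Of the genes for arginine, glycine and methyl supply, the substrates of Gatm and Gamt, 13 of 18 were tested, 1 was higher in MT and 5 were lower, against the background of 11.0% and 6.86%. The arginine transporter Slc7a2 rose from 0.970 ± 0.332 to 34.0 ± 3.05 CPM (SD, n = 2; log2FC 5.13, SE 0.64, edgeR adjusted p = 5.7e-04). Shmt1 (log2FC -3.81, SE 0.50) and Shmt2 (-3.22, SE 0.56), which interconvert serine and glycine, fell, as did Ahcy (-3.48, SE 0.70), which clears S-adenosylhomocysteine. The other lower genes, named after their values were seen, were a second arginine transporter, Slc7a1 (log2FC -2.01, SE 0.62, edgeR adjusted p = 0.046), and the arginine synthesis enzyme Ass1 (-2.72, SE 0.58). Oat, which handles the ornithine that Gatm releases, and Mat2a, an S-adenosylmethionine synthetase, had the highest levels of this list in GAS, with 107 ± 3.38 and 38.9 ± 1.45 RPKM (SD, n = 3).

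The mitochondrial exchange genes, partners of Ckmt2, gave 0 calls in either direction in edgeR among 6 of 7 tested. Their median log2FC was -0.66. In GAS the adenine nucleotide translocase Slc25a4 reached 1325 ± 57.8 RPKM and the porin Vdac1 442 ± 11.4 RPKM (SD, n = 3). Of 5 related transporters 3 were tested and 0 called. The taurine transporter Slc6a6 and Slc16a9 had the highest levels in GAS, with 10.9 ± 1.03 and 1.67 ± 0.328 RPKM (SD, n = 3).

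Genes with the pattern most like the kinases were sought over the 6 cultured libraries, by the root mean square difference of mean-centred log2(CPM + 1) among 8877 genes of at least 10 CPM. For Ckm these included Atp9a (0.25) and Tnnt1 (0.30), a slow troponin T. For Ckb they were Aif1l (0.33), Plekhg5 (0.36) and Map1lc3a (0.40), an LC3 autophagy protein.

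Lactate was given to MB to ask whether it is enough to raise genes whose promoters are highly lactylated in MT, and promoter lactylation was not analysed here. No member was called. Of the 4 members tested (Ckb, Gatm, Gamt, Slc6a8), edgeR called 0 in either direction, and over all 11804 genes tested it called 0.0% higher and 0.0% lower. At an unadjusted p under 0.05 there were 5 genes and none was a member, and DESeq2 also called 0 genes. Same-numbered libraries varied together (correlation 0.70), which a fit without a replicate block counts as spread within groups. With that block 166 genes, Ckb among them, had an unadjusted p under 0.05 in edgeR, and 0 were called. The short list therefore does not show that lactate had no effect. The lactate comparison shares its MB libraries with that of MT.

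Ckb had the largest difference of the 4. It was at 111 and 50.5 CPM in MB_lac against 62.7 and 29.9 CPM in MB. The ranges overlapped, because the second lactate library lay between the MB libraries. The log2FC was 0.75 (SE 0.56, 95% interval -0.61 to 2.12, edgeR adjusted p = 1.0), or 1.68-fold, and 1.58% of all genes tested had a higher log2FC. It ran from 0.14 without MB_lac replicate 1 to 1.48 without MB replicate 1. Within replicate numbers the log2 ratio was 0.82 for number 1 and 0.76 for number 2. Ckb was thus the 1 of 4 tested members higher within both numbers, as 22.7% of all genes were, a share near that background. No member was lower within both, as 20.3% of genes were.

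The other members differed in sign between the numbers. Gamt was at 113 and 48.5 CPM in MB_lac against 77.6 and 51.1 in MB, with log2 ratios of 0.54 and -0.07 and a fitted log2FC of 0.28 (SE 0.52, 95% interval -0.97 to 1.53). Gatm was at 25.8 and 17.6 CPM against 23.9 and 23.7, with log2 ratios of 0.11 and -0.43 and a log2FC of -0.17 (SE 0.44, 95% interval -1.24 to 0.90). Slc6a8 was at 16.0 and 11.7 CPM against 14.2 and 16.5, with log2 ratios of 0.17 and -0.49 and a log2FC of -0.19 (SE 0.46, 95% interval -1.31 to 0.94). For all of them the lactate libraries overlapped the controls, and each interval is too wide to show that the member did not change.

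The muscle isoforms had few or no counts after lactate. Ckm had 9 and 1 counts in MB_lac against 4 and 3 in MB, a pooled ratio of 2.08 with an exact interval of 0.714 to 6.43. Ckmt2 had 0 counts in all 4 libraries, which allows at most 0.533 CPM in the shallowest of them after scaling. Ckb held 98.6% (exact 95% interval 97.4 to 99.4) and 99.7% (98.1 to 100.0) of Ckb plus Ckm in MB_lac, a range that overlapped that of MB.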

How the data were processed

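RNA-seq of GAS, MB, MT and MB_lac was used (9 libraries). Per the labels, the authors trimmed reads with Trim Galore 0.6.6, aligned them to mm10 with HISAT2 2.2.1 and counted them with Subread 2.0.1. The files deposited by the authors hold unnormalised counts for each gene. The annotation release, strand setting and handling of multi-mapped reads are not given in the sources used here. Exon lengths came from GENCODE M21. CPM used TMM factors, computed separately for GAS and cultured cells. MT was compared with MB, and MB_lac with MB, each in a fit of its 4 libraries with edgeR 4.0.16 (R 4.3.3; filterByExpr, quasi-likelihood test, Benjamini-Hochberg adjustment over all genes tested). Calls needed an adjusted p under 0.05 and an absolute log2FC over 0.5. The fits were also run on counts simulated with the same dispersion for every gene. That checks the code and does not show how calls hold at the spread of these libraries. DESeq2 1.42.0, other filters, a replicate block and leaving out each library were alternatives. Exact binomial intervals (95%) and the limit of 3 counts cover counting error only. From each list were named up to 3 called genes per direction with the largest absolute log2FC and the 2 with the highest RPKM in GAS, and for Ckm and Ckb the 3 most similar genes, except 2 genes that are not reported here. Members and lists were chosen with earlier results of these data known. Python 3.11.15 with scipy 1.17.1 was used for the rest.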

Additional observations from a re-analysis of the deposited data

How the results depend on the processing

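Members kept their direction and side of the threshold under RLE size factors, DESeq2, no filter and one fit of all 6 cultured libraries. In MT against MB 1425 genes were higher and 887 lower. Requiring at least 10 counts in every library gave 766 higher and 2 called members instead of 4, since Ckm and Ckmt2 then were not tested. Leaving out 1 library gave 962 to 4118 genes higher (4118 without MT replicate 2), 270 to 1570 lower (270 without MT replicate 1, 1570 without MB replicate 2), 3 to 4 members called, and a log2FC of 1.21 to 3.32 for Ckb and -0.75 to 0.81 for Gamt. Each time the arm with 1 library is assumed to vary like the other, and why the counts moved was not tested. In the lactate comparison leaving out 1 library gave 0 to 2 genes higher (2 without MB replicate 1), and a log2FC of -0.42 to 0.045 for Gatm (turned without MB_lac replicate 2) and -0.39 to 0.74 for Gamt (turned without MB_lac replicate 1), and 0.14 to 1.48 for Ckb, which was not called in any. Depth limits Ckm and Ckmt2 in MB and Ckmt1 in every group. With the longest transcript as the length, Gamt in MB went from 44.6 to 65.1 RPKM, and without MT replicate 2, Ckb in MT went from 106 to 40.4 RPKM.

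Replicate numbers do not state a shared culture. Deviations of same-numbered libraries correlated at -0.13 in MT against MB and 0.70 in the lactate comparison. The replicate block gave 1447 genes higher and 824 lower in MT against MB, with 4 members called. The crossed pairing, chosen after seeing the data, gave 1192 and 867, with 4 members called. With the replicate block the lactate comparison had 0 calls, 166 genes, Ckb among them, at an unadjusted p under 0.05, and for Ckb a log2FC of 0.75 (SE 0.27, 95% interval 0.14 to 1.36, edgeR adjusted p = 1.0). The block changed no member's call.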
